A study of Mus musculus with 4 samples.

Results

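Immediate-early and growth factor response genes are the genes that cells switch on first after serum, a growth factor or a stress. A list of 36 such genes was followed among the 54532 genes counted in 4 bulk RNA-seq libraries. The cells were C3H10T1/2, an established mouse line with the properties of mesenchymal stem cells. The 36 were given as a list of gene symbols, with no threshold on their values: 7 subunits of the AP-1 transcription factor, 16 other transcription factors and nuclear regulators, 8 feedback inhibitors, and 5 other effectors including the ligand Hbegf. All 36 were found and all 36 passed the filter on low counts. They lie on 14 chromosomes.

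The study edited C3H10T1/2 cells to ask how Mmachc is silenced by transcription running on from its neighbour Prdx1. PRDX1MT is 1 library of cells with a CRISPR edit at the splice acceptor of Prdx1 intron 5; another of its labels reads PRDX1-KO, and its library name points to a single clone, c10. DKO is 2 libraries, clone 1 and clone 5, of cells with a double knockout of Dnmt3a and Dnmt3b, the enzymes that set new DNA methylation, and the labels do not say whether these clones also carry the Prdx1 edit. WT is 1 library of the unedited cells. All 4 were grown in the same serum-containing medium, and the labels name no serum starvation or stimulation step for any of them.

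In this response, growth factor receptors signal through Ras and the kinase ERK, and through the cofactors of SRF and CREB, to promoters that need no new protein to fire. The first products are mostly transcription factors (the Fos, Jun, Egr, Nr4a and Klf families), followed by inhibitors that close the loop: Dusp phosphatases take phosphate off ERK and its relatives, Spry and Errfi1 proteins block signalling at the receptor, and Zfp36 shortens the life of the messages. The transcripts are short-lived, so their level in growing cells follows the signals of the moment.

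The libraries held 27570136 (PRDX1MT), 34901511 (DKO clone 1), 27789693 (DKO clone 5) and 37685798 (WT) counts. CPM stands for counts scaled to library size with TMM factors, and levels of different genes are compared only as RPKM, which also divides by exon length. Prdx1 stood at 31.2 CPM in PRDX1MT, 392 in DKO clone 1, 332 in DKO clone 5 and 399 in WT. Dnmt3a was counted at 80.9 CPM in PRDX1MT, 31.3 and 25.9 CPM in DKO clones 1 and 5, and 43.7 CPM in WT; the labels do not give the edited exons, so counts over the whole gene do not check the knockout. The 11 mesenchymal markers summed to 22000 to 40200 CPM per library, but Thy1, one of them, had 0.884 CPM in PRDX1MT, 0.757 in clone 1, 1.38 in clone 5 and 29.0 in WT. Summed markers of blood, epithelial, endothelial and pluripotent cells reached at most 4.57 CPM in a library, and Epcam had 0 reads in all 4. In bulk RNA a lower level can mean fewer cells with the transcript or less of it per cell, and the 2 cannot be told apart.

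The 36 genes were high in PRDX1MT and in DKO clone 1, and near WT in DKO clone 5. Together they held 0.914% of all counts in PRDX1MT, 1.49% in DKO clone 1, 0.406% in DKO clone 5 and 0.414% in WT. With 1 library on each side there is no replicate check and no p-value, so a gene was said to pass a size rule if its level differed at least 2-fold, the 2 libraries held at least 100 of its reads together, and the 95% exact binomial interval of the ratio, which covers counting error only, excluded no change. Against WT, 28 of the 36 passed higher and 0 lower in PRDX1MT, where 4.73% of the 19446 genes tested passed higher and 4.94% lower. In DKO clone 1, 30 passed higher and 0 lower, with a background of 5.59% and 5.03%. In DKO clone 5, 3 passed higher (Dusp4, Klf4 and Spry4) and 1 lower (Atf3), against a background of 3.7% and 5.57%. Among genes with at least 100 reads in the pair of libraries, which alone could pass, the background was 7.25% higher and 7.57% lower in PRDX1MT, 8.4% and 7.56% in clone 1, and 5.69% and 8.58% in clone 5. The median log2 ratio of the 36 to WT was 1.49 in PRDX1MT, 1.73 in clone 1 and 0.22 in clone 5, and that of all tested genes was -0.01, -0.044 and -0.024. These 3 comparisons share the single WT library, and their values are therefore given side by side only.

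**Figure D1:**
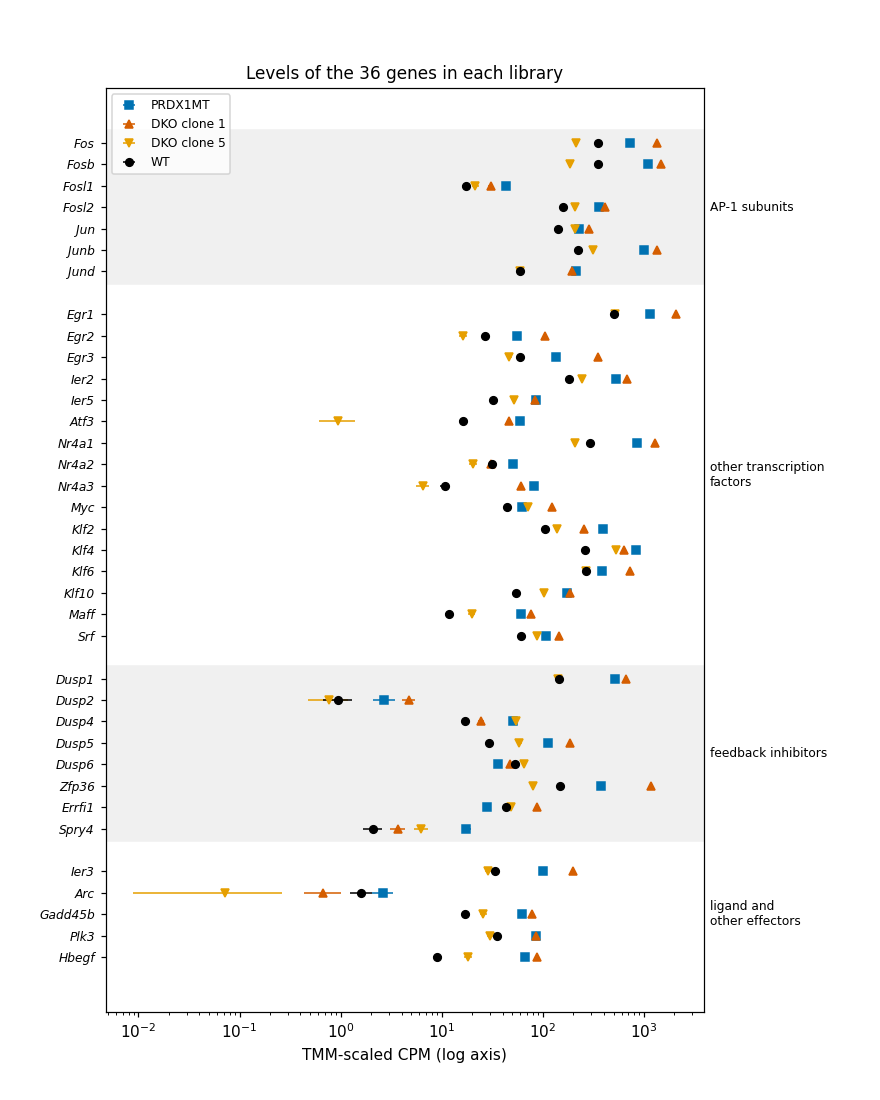
Level of each of the 36 genes in each library, as TMM-scaled CPM on a log axis, with genes grouped by role; points are single libraries and bars are exact 95% Poisson intervals (counting error only). For 29 of the 36 genes the PRDX1MT and DKO clone 1 points are the 2 rightmost.

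The order of the libraries gives the same picture without a threshold. DKO clone 1 held the highest level for 24 of the 36 genes, PRDX1MT for 10, DKO clone 5 for 2 (Dusp4 and Dusp6) and WT for 0, whereas among all genes tested each library was highest for 24.1 to 25.7%. DKO clone 5 was lowest for 15 genes, clone 1 for 0, PRDX1MT for 2 and WT for 19, where 24.8%, 27%, 25.7% and 22.5% of all genes tested were lowest in these libraries. PRDX1MT and DKO clone 1 were the 2 highest libraries for 29 genes (80.6%, against 17.7% of all genes tested). The 7 exceptions were Myc and Errfi1, highest in the 2 DKO clones; Dusp4 and Spry4, highest in PRDX1MT and clone 5; Nr4a2 and Arc, highest in PRDX1MT and WT; and Dusp6, highest in clone 5 and WT.

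The 2 DKO clones, which share a label, differed widely from each other. In DKO clone 1 against DKO clone 5, 21 of the 36 passed the size rule higher and 1, Dusp4, lower (background 6.79% and 4.83%, or 10.7% and 7.63% of genes with at least 100 reads), with a median log2 ratio of 1.62 (1.73 for clone 1 against WT), and -0.00055 over all genes. DKO clone 1 against PRDX1MT gave 3 higher (Egr3, Zfp36 and Errfi1) and 2 lower (Dusp4 and Spry4), close to the background of 5.22% and 4.39% (8.14% and 6.85% of genes with at least 100 reads). DKO clone 5 against PRDX1MT gave 0 higher and 21 lower (background 3.61% and 4.96%, or 5.83% and 8.01% of genes with at least 100 reads).

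No member passed in DKO taken as a group of 2 clones. In edgeR's quasi-likelihood fit over all 4 libraries, DKO against WT called 0 of the 36 higher and 0 lower at a Benjamini-Hochberg adjusted p under 0.05 (background 0.0154% and 0.453%), and DESeq2 on the same genes also called 0 (background 0.288% and 1.06%). At an unadjusted p under 0.05 edgeR picked 4 higher and 0 lower (background 1.57% and 3.51%): Hbegf, Dusp5, Maff and Klf10. Hbegf had the largest fitted log2 ratio, 2.53 (SE 0.92, edgeR adjusted p = 0.792). The 4 were higher than WT in both clones, but they were picked by a low p from these same clones, so this adds no support. DKO against PRDX1MT likewise called 0 in edgeR (background 0.0103% higher and 0.195% lower) and 0 in DESeq2 (background 0.314% and 0.792%); at an unadjusted p under 0.05 edgeR picked Errfi1 higher, and Spry4 and Arc lower (background 1.69% and 3.0%). These p-values draw their spread from the 2 clones alone, with 1 residual degree of freedom. In edgeR that spread is drawn towards a spread shared across all genes, which adds 6.54 prior degrees of freedom. The p-values speak only for these libraries, since the single libraries are assumed to vary as the clones do.

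**Figure D2:**
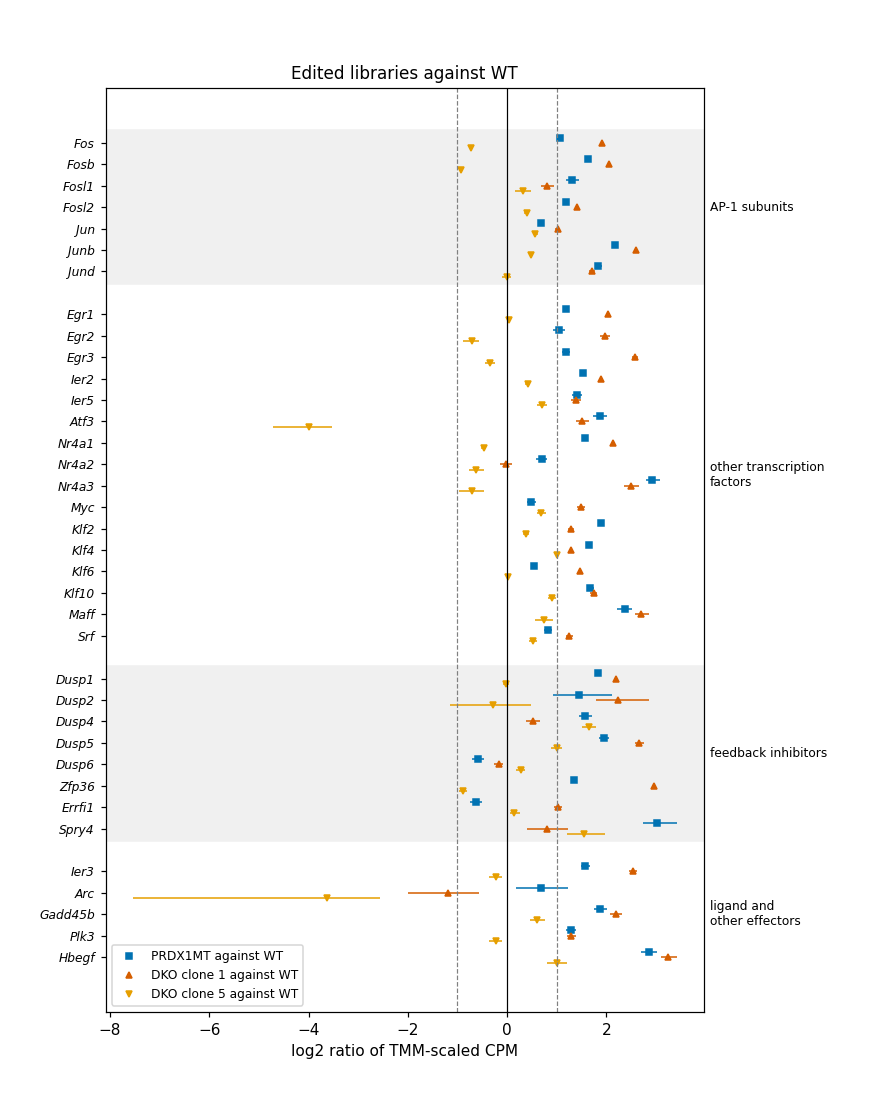
Log2 ratio of each of the 36 genes to WT in PRDX1MT, DKO clone 1 and DKO clone 5, by role, with exact 95% intervals for counting error; dashed lines mark a 2-fold difference. PRDX1MT and DKO clone 1 lie mostly right of the upper dashed line, with medians of 1.49 and 1.73, and DKO clone 5 scatters around 0 with a median of 0.22.

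Promoter sequence from RefSeq (GRCm38.p6) was at hand for 26 of the 36 genes, as windows of 300 bases, 250 before to 50 after each start. Fosl1, Egr1, Egr3, Ier2, Dusp4, Myc, Klf10, Arc, Spry4 and Hbegf were not searched. The stretches shown are the 150 bases before the start, 5′ to 3′ on the gene's strand, of the members with a CArG box, the element that SRF is known to bind (capitals). They are shown because these stretches hold the letters of elements known to link such signals to genes, and because Zfp36 had the largest ratio to WT in clone 1 after Hbegf. Zfp36 is at chr7:28379229-28379378 (minus strand), Dusp5 at chr19:53528995-53529144 (plus), Egr2 at chr10:67537719-67537868 (plus, 1 of its 5 windows) and Srf at chr17:46556163-46556312 (minus).
Zfp36: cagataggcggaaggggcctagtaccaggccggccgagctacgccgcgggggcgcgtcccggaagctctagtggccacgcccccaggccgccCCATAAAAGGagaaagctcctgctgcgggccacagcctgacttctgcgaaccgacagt
Dusp5: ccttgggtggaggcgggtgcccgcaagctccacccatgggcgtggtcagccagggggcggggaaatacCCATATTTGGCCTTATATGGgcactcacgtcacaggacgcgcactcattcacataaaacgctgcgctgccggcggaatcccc
Egr2: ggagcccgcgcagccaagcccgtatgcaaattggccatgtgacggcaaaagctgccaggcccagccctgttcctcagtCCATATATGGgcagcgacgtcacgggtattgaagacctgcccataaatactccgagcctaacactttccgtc
Srf: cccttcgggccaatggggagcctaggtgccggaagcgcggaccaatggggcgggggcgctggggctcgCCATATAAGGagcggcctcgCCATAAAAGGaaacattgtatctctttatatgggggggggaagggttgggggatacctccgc

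The next 3 stretches carry a CRE, TGACGTCA, the palindrome that CREB and ATF proteins are known to bind (capitals). Dusp1 is at chr17:26508473-26508622 (minus), Maff at chr15:79347370-79347519 (plus) and Errfi1 at chr4:150854920-150855069 (plus).
Dusp1: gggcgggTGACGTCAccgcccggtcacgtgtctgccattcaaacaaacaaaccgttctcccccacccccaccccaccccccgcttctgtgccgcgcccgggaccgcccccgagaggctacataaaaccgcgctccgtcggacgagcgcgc
Maff: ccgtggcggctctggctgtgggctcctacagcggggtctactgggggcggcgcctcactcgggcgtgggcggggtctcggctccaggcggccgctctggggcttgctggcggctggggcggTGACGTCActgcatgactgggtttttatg
Errfi1: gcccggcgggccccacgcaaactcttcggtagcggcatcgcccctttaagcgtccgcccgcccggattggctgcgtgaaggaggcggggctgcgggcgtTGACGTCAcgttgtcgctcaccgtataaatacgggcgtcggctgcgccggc

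Searched on both strands of the whole windows, the CArG box was in 4 of the 26 genes (15.4%) and in 1.81% of the 27025 genes with a window. The full CRE was in 3 of 26 (11.5%, against 2.03%). The EGR site GCGNGGGCG was in 11 of 26 (42.3%, against 6.27%), among them Zfp36, Srf, Nr4a1, Klf2 and Klf4; in Zfp36 it began at position -105, ahead of the CArG box at -58. The AP-1 site TGANTCA was in 0 of 26 (8.97% of all genes), which says only that these letters are not in these windows. A match is a string of letters and was not tested as a binding site. The 4 genes with a CArG box were all above WT in PRDX1MT (Zfp36 2.55-fold, Dusp5 3.87-fold, Egr2 2.07-fold and Srf 1.77-fold) and in clone 1 (7.85-fold, 6.32-fold, 3.92-fold and 2.37-fold). So were most of the list: 34 of the 36 were above WT in PRDX1MT and 33 in clone 1. The direction therefore does not set genes with the box apart. In clone 5, Dusp5 and Srf were above WT (2.00-fold and 1.44-fold), and Zfp36 and Egr2 were below it (0.542-fold and 0.609-fold).

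Among the AP-1 subunits, Fosb and Fos showed the widest range. These are the inducible partners that pair with Jun proteins on DNA. Fosb stood at 1090 CPM in PRDX1MT, 1460 in DKO clone 1, 185 in DKO clone 5 and 351 in WT (27120, 52209, 5089 and 14429 reads). Fos followed the same order, at 727, 1330, 211 and 350 CPM. Clone 1 was the highest library and clone 5 the lowest for both, with WT between the clones. The ratio of Fosb to WT was 3.11 (95% interval 3.05 to 3.17) in PRDX1MT, 4.18 (4.10 to 4.25) in clone 1 and 0.527 (0.510 to 0.544) in clone 5. For Fos the ratios were 2.08 (2.03 to 2.12), 3.79 (3.72 to 3.87) and 0.604 (0.586 to 0.623) in the same libraries.

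Junb, a Jun family member that responds early to growth factors, had 1000 CPM in PRDX1MT, 1340 in DKO clone 1, 310 in DKO clone 5 and 222 in WT. It differed from Fos and Fosb in that clone 5 was above WT, 1.40-fold (95% interval 1.36 to 1.44), while PRDX1MT and clone 1 were 4.51-fold (4.41 to 4.62) and 6.02-fold (5.89 to 6.16) above it. Jund, usually the steady member of the family, had 212 CPM in PRDX1MT, 196 in clone 1, 59.3 in clone 5 and 59.4 in WT, a ratio of 3.57 (3.40 to 3.75) in PRDX1MT and 0.998 (0.937 to 1.06) in clone 5. Jun itself spanned a smaller range, 226, 284, 209 and 140 CPM, and passed the rule against WT in clone 1 only. The Fos relatives Fosl2 (358, 414, 207 and 157 CPM) and Fosl1 (43.0, 30.4, 21.5 and 17.3 CPM in the same order) were lowest in WT. Exons of Fosl1 (57.2%) and Jund (52.6%) lie under genes on the other strand, and 7.5% of those of Junb lie under Prdx2; the strand setting of the counting is not given, so reads of these partners cannot be told apart.

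Per exon length, Fos transcripts outweighed the other Fos family members in every library, and Junb those of the Jun family. The Fos family summed to 542 RPKM in PRDX1MT, 857 in DKO clone 1, 151 in DKO clone 5 and 230 in WT. The Jun family summed to 634, 788, 236 and 176 RPKM in the same order. The Jun family total was thus lowest in WT, but the Fos family total was lowest in clone 5. The make-up changed as well: Junb was 68.7% and 73.8% of Jun family RPKM in PRDX1MT and clone 1, but 57.1% in clone 5 and 54.8% in WT, and Jun was 11.2% and 11.3% against 27.8% and 25%. By RPKM, Junb ranked 31 in PRDX1MT, 24 in clone 1, 202 in clone 5 and 254 in WT among 13543 protein-coding genes tested.

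**Figure D3:**
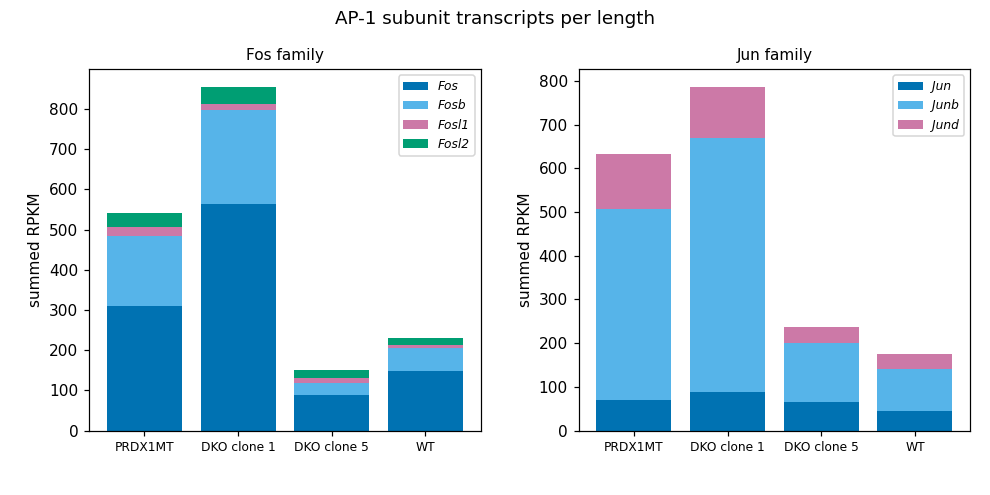
Summed RPKM of the Fos family (left) and the Jun family (right) in each library, stacked by gene; each bar is 1 library, with no replicates. The Fos family total is 542 in PRDX1MT, 857 in DKO clone 1, 151 in DKO clone 5 and 230 in WT, and Junb makes up most of the Jun family bar in each.

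Of the other transcription factors, 12 of 16 passed higher than WT in PRDX1MT and 15 of 16 in DKO clone 1. The shares of all genes tested that passed higher were 4.73% and 5.59%. In DKO clone 5, 1 of the 16 passed higher and 1 lower, against 3.7% and 5.57% of all genes tested. Egr1, the zinc finger factor most often used as a readout of ERK signalling, had 1150 CPM in PRDX1MT, 2090 in clone 1, 521 in clone 5 and 508 in WT. Clone 5 lay within 1.03-fold of WT for it. Egr3, a relative of Egr1, had 135, 351, 46.4 and 59.1 CPM; its ratio to WT was 2.28 (95% interval 2.16 to 2.40) in PRDX1MT, 5.93 (5.68 to 6.20) in clone 1 and 0.785 (0.733 to 0.841) in clone 5. Egr2, known for its part in myelination, had 55.1, 104, 16.2 and 26.7 CPM and was 2.07-fold (1.91 to 2.24) above WT in PRDX1MT, 3.92-fold (3.66 to 4.20) in clone 1, and at 0.609 of WT (0.544 to 0.680) in clone 5. The 3 Egr genes ranked the libraries alike at the top, clone 1 before PRDX1MT, and only Egr1 was not lowest in clone 5.

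The Nr4a genes encode orphan nuclear receptors whose activity is set mainly by how much is made. Nr4a1 had 862 CPM in PRDX1MT, 1280 in DKO clone 1, 210 in DKO clone 5 and 291 in WT. Nr4a3 had 82.0, 60.7, 6.50 and 10.7 CPM (2039, 2165, 179 and 439 reads), which is 7.68-fold (95% interval 6.93 to 8.54) above WT in PRDX1MT, 5.69-fold (5.13 to 6.32) in clone 1 and 0.609 of WT (0.509 to 0.727) in clone 5. Nr4a2 stood apart, with 50.9, 30.9, 20.4 and 31.4 CPM: clone 1 was level with WT (0.983, interval 0.907 to 1.07). In RPKM, Nr4a1 was 89.7 to 95.4% of the family in the 4 libraries.

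Atf3, a stress-induced factor of the ATF family (Ensembl ENSMUSG00000026628), gave the widest gap between the DKO clones. It had 58.8 CPM in PRDX1MT, 46.2 in clone 1, 0.944 in clone 5 and 16.1 in WT, from 1462, 1647, 26 and 661 reads. Clone 5 alone was nearly empty of it, and the floor of 3 counts there was 0.109 CPM. The ratio to WT was 3.66 (95% interval 3.34 to 4.02) in PRDX1MT, 2.88 (2.63 to 3.15) in clone 1 and 0.0588 (0.0381 to 0.0869) in clone 5. Clone 1 held 48.9-fold (33.3 to 75.1) more than clone 5, and over the clones the level was 23.6 ± 32.0 CPM (SD, n = 2). The fitted log2 ratio of DKO to WT was 0.55 (SE 1.53, edgeR adjusted p = 1.0), between clone values of 1.52 and -4.00.

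Maff, a small Maf protein that pairs with other leucine zipper factors, had 60.8 CPM in PRDX1MT, 76.7 in DKO clone 1, 19.7 in DKO clone 5 and 11.7 in WT. The 3 edited libraries all exceeded WT, 5.18-fold (95% interval 4.67 to 5.75), 6.53-fold (5.93 to 7.21) and 1.68-fold (1.48 to 1.90). Klf4, one of the reprogramming factors, behaved likewise, with 829, 639, 531 and 263 CPM, and passed the rule in all 3. It was joined by Klf2 (394, 257, 138 and 106 CPM) and Klf10, a TGF-beta-induced repressor (175, 184, 103 and 54.7 CPM), in having WT lowest. Klf6 (386, 732, 269 and 265 CPM) set clone 1 apart from the other 3 libraries. Srf, the factor behind the CArG box, had 107, 144, 87.5 and 60.6 CPM and passed against WT in clone 1 only. Myc, the growth regulator, had 61.9, 124, 70.9 and 44.0 CPM, again with clone 1 highest and WT lowest. Ier2 (526, 674, 243 and 181 CPM) and Ier5 (85.0, 83.3, 52.0 and 31.9 CPM), nuclear proteins named as immediate early response genes, were lowest in WT as well.

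The feedback inhibitors did not move as one, and 4 of the 7 exceptions were among them. Zfp36 (tristetraprolin, ENSMUSG00000044786) binds AU-rich messages and marks them for decay. It had 375 CPM in PRDX1MT, 1160 in DKO clone 1, 79.8 in DKO clone 5 and 147 in WT (9341, 41275, 2198 and 6065 reads). Clone 1 stood well above the other 3 libraries. The ratio to WT was 2.55 (95% interval 2.47 to 2.63) in PRDX1MT, 7.85 (7.64 to 8.07) in clone 1 and 0.542 (0.516 to 0.569) in clone 5, and clone 1 was 14.5-fold (13.9 to 15.1) above clone 5.

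Dusp1 and Dusp2, nuclear phosphatases of several MAP kinases, followed the main pattern. Dusp1 had 513 CPM in PRDX1MT, 658 in DKO clone 1, 142 in DKO clone 5 and 144 in WT, so that clone 5 sat on WT (0.989, 95% interval 0.950 to 1.03) while PRDX1MT and clone 1 were 3.56-fold (3.46 to 3.68) and 4.57-fold (4.44 to 4.70) above it. Dusp2 was scarce, with 67, 168, 21 and 39 reads (2.69, 4.71, 0.763 and 0.948 CPM); it was 2.84-fold (1.89 to 4.33) and 4.97-fold (3.49 to 7.24) above WT in PRDX1MT and clone 1, and in clone 5 the ratio of 0.805 (0.450 to 1.40) was not distinguishable from 1 at this depth. Dusp5, a nuclear phosphatase selective for ERK, had 113, 185, 58.5 and 29.3 CPM and exceeded WT 3.87-fold (3.61 to 4.14), 6.32-fold (5.94 to 6.72) and 2.00-fold (1.85 to 2.15). With the prior count its ratio in clone 5 lay just short of the 2-fold line, as did that of Hbegf there. Exons of Dusp5 lie to 22.1% under a gene on the other strand.

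Dusp4, Dusp6, Spry4 and Errfi1 departed from it. Dusp4, a nuclear phosphatase, had 50.8 CPM in PRDX1MT, 24.6 in DKO clone 1, 53.7 in DKO clone 5 and 17.1 in WT, so that clone 5 was above clone 1. Dusp6, the cytoplasmic ERK phosphatase, ran almost opposite to the list with 35.6, 47.4, 64.9 and 53.4 CPM, and passed the rule nowhere. Spry4, an inhibitor of receptor tyrosine kinase signalling, had 17.5, 3.67, 6.25 and 2.09 CPM (436, 131, 172 and 86 reads): PRDX1MT was 8.39-fold (95% interval 6.64 to 10.7) above WT, clone 5 was 2.99-fold (2.29 to 3.92) and clone 1 was 1.76-fold (1.33 to 2.33). Errfi1 (Mig6), which blocks the EGF receptor kinase, had 28.1, 88.2, 48.2 and 43.3 CPM; PRDX1MT was lowest for it and clone 1 highest, with 3.14-fold between them.

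Hbegf, the ligand of the list and a growth factor of the EGF family, had the largest ratio to WT of the 36 in DKO clone 1. Its level was 66.0 CPM in PRDX1MT, 86.7 in clone 1, 18.1 in clone 5 and 9.04 in WT (1641, 3091, 498 and 372 reads). WT was lowest, and every edited library was above it: 7.30-fold (95% interval 6.52 to 8.19) in PRDX1MT, 9.59-fold (8.61 to 10.7) in clone 1 and 2.00-fold (1.75 to 2.29) in clone 5. Over the DKO clones it averaged 52.4 ± 48.5 CPM (SD, n = 2), a spread close to the mean.

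Ier3, a protein linked to survival and ERK signalling, had 101 CPM in PRDX1MT, 197 in DKO clone 1, 28.8 in DKO clone 5 and 33.9 in WT. It was 2.97-fold (95% interval 2.78 to 3.18) above WT in PRDX1MT, 5.82-fold (5.49 to 6.16) in clone 1 and at 0.851 of WT (0.779 to 0.929) in clone 5. Gadd45b, a stress sensor, had 62.1, 77.5, 25.7 and 16.9 CPM, and Plk3, a stress-responsive kinase, had 85.0, 85.6, 29.7 and 35.0 CPM. Both were similar in PRDX1MT and clone 1. Arc, best known from neurons, was barely counted, with 65, 24, 2 and 66 reads (2.61, 0.673, 0.0726 and 1.60 CPM); clone 1 was below WT (0.420, interval 0.251 to 0.679), but the pair of libraries held 90 reads and could not pass the rule.

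**Figure D4:**
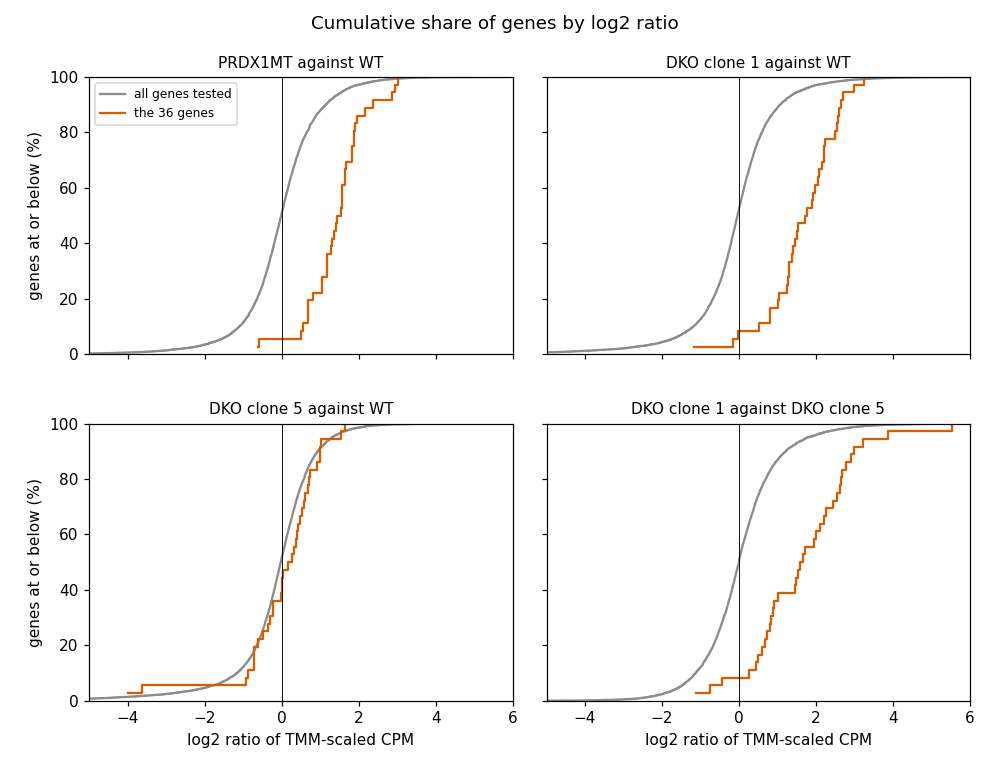
Cumulative share of genes (y axis, %) at or below each log2 ratio (x axis, drawn from -5 to 6) for the 36 genes (orange) and all 19446 genes tested (grey), in 4 comparisons. The orange curve lies right of the grey one in PRDX1MT against WT, clone 1 against WT and clone 1 against clone 5 (medians 1.49, 1.73 and 1.62), and close to it in clone 5 against WT (0.22).

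Genes around the response were then counted by list. Among 39 tested genes of another list of immediate-early and early response genes, 23 passed higher and 1 lower than WT in PRDX1MT, 30 and 1 in DKO clone 1, and 10 and 5 in DKO clone 5, with median log2 ratios of 1.18, 1.52 and 0.089. Of all genes tested, 4.73% passed higher and 4.94% lower in PRDX1MT, 5.59% and 5.03% in clone 1, and 3.7% and 5.57% in clone 5. As among the 36, more genes of this list passed higher in PRDX1MT and clone 1 than in clone 5. In clone 5 its counts in both directions were above those shares. Of the 36, 3 passed higher (8.33%) and 1 lower (2.78%) in clone 5. The shares were 3.7% and 5.57% of all genes tested, or 5.69% and 8.58% of genes with at least 100 reads. With counts this small, nothing is read from the difference. Il6, an inflammatory cytokine, had 1.69 CPM in PRDX1MT, 59.1 in clone 1, 0.763 in clone 5 and 2.92 in WT, while Thbs1, a matricellular protein, had 2190, 219, 422 and 107 CPM and so was led by PRDX1MT. Maf had 1.00, 3.34, 0.109 and 3.16 CPM, below WT in PRDX1MT and clone 5.

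Genes upstream of the response were counted in the same way. Of 19 genes from Ras to ERK, 0 passed higher and 2 lower than WT in each of the 3 comparisons, and of 13 cofactors of SRF and CREB, 0 passed higher and at most 1 lower. With 3.7 to 5.59% of all genes passing in each direction, lists of this size would hold about 1 such gene, so nothing is read from these counts. Rps6ka1, an ERK-activated kinase, had 0.482 CPM in PRDX1MT, 0.505 in DKO clone 1, 0.799 in DKO clone 5 and 2.65 in WT. Its relative Rps6ka3 had 38.6, 34.7, 57.0 and 79.0 CPM, and Creb1, the factor behind the CRE, 23.2, 30.4, 37.0 and 63.7 CPM. These 3 were highest in WT. Rps6ka2, a further relative, was not, with 26.5 CPM in PRDX1MT, 14.5 in clone 1, 10.5 in clone 5 and 25.2 in WT. These are transcript levels, and the phosphorylation that carries the signal was not measured.

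Receptors and ligands went in several directions. Of 11 receptors, 0 passed higher and 2 lower in PRDX1MT, 1 and 4 in DKO clone 1, and 1 and 4 in DKO clone 5. Over all genes tested the shares were 4.73% and 4.94% in PRDX1MT, 5.59% and 5.03% in clone 1, and 3.7% and 5.57% in clone 5. Egfr, a receptor of Hbegf, had 62.2 CPM in PRDX1MT, 14.4 in clone 1, 7.74 in clone 5 and 70.4 in WT. It was low in both DKO clones, where Hbegf levels differed 4.79-fold between them. Fgfr2 had 73.4, 43.0, 3.92 and 95 CPM, and Erbb3 2.73, 1.32, 21.1 and 6.51 CPM. Of 14 EGF family ligands and other growth factors, 5 passed higher and 4 lower in PRDX1MT, 5 and 2 in clone 1, and 3 and 3 in clone 5. Pdgfb, a PDGF ligand, was above WT in all 3 (54.3, 64.3 and 42.7 CPM, against 8.72 in WT), and Hgf below it in all 3 (4.34, 21.5 and 6.90 CPM, against 47.3 in WT). Tgfa, like Hbegf a ligand of the EGF receptor, had 2.09 CPM in PRDX1MT, 5.24 in clone 1, 0.0363 in clone 5 and 5.15 in WT.

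Of 17 other ERK feedback and target genes, 2 passed higher and 1 lower in PRDX1MT, 4 and 2 in DKO clone 1, and 1 and 3 in DKO clone 5. For this list and the next, the share of all genes tested was 3.7 to 5.59% in each direction. Dusp8, a phosphatase of stress kinases, had 74.5, 35.1, 31.0 and 16.5 CPM, and Il17rd, a further feedback inhibitor, 22.4, 63.7, 10.8 and 55.8 CPM. Among 17 genes known as targets of SRF with its MRTF cofactors, mostly of the actin cytoskeleton, 5 and 0 passed in PRDX1MT, 2 and 2 in clone 1, and 2 and 1 in clone 5. Ccn2, a secreted matricellular protein, was above WT in all 3 with 293, 195 and 541 CPM, against 69.4 in WT, and was highest in clone 5, the library in which 15 of the 36 were lowest. Myl9, a myosin light chain, had 94.3 CPM in PRDX1MT, 8.02 in clone 1, 8.93 in clone 5 and 41.3 in WT. It was the 1 gene of these lists that edgeR called in DKO against PRDX1MT (lower), and in DKO against WT edgeR called 0 in every list.

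**Figure D5:**
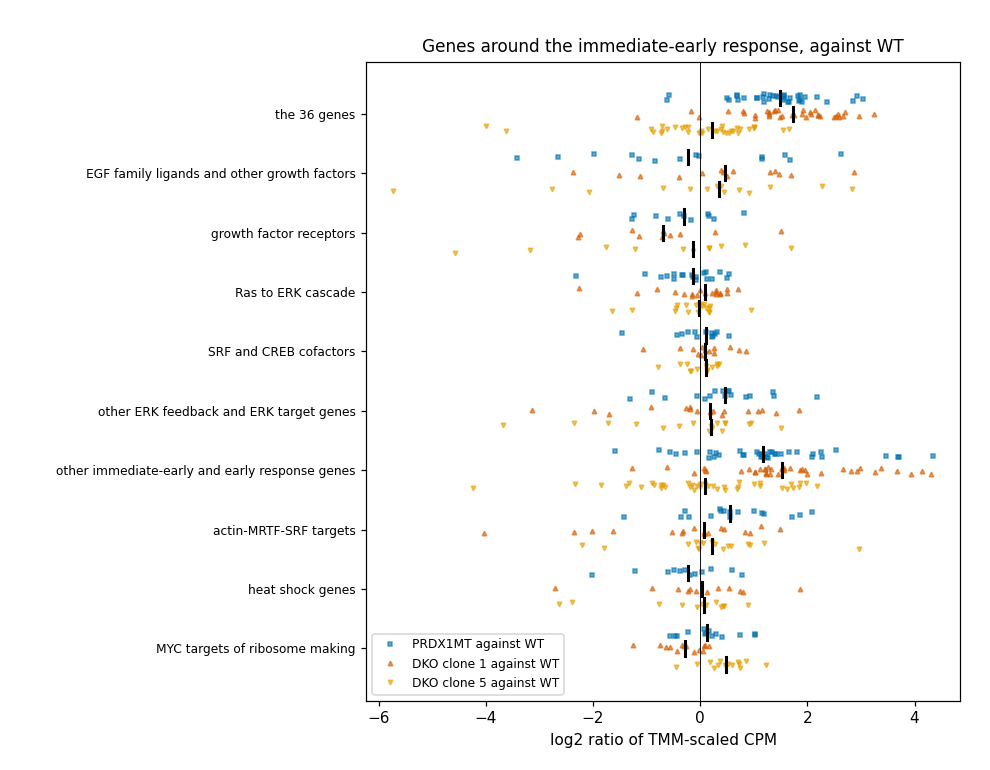
Log2 ratio to WT of every tested gene in the 36-gene list and 9 lists around it, for PRDX1MT, DKO clone 1 and DKO clone 5; each point is a gene and black bars are medians. The medians of the 36 genes (1.49, 1.73 and 0.22) and of the other immediate-early list (1.18, 1.52 and 0.089) stand right of 0 in PRDX1MT and clone 1, and the Ras to ERK list stays near 0 in all 3 (-0.14, 0.091 and -0.028).

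Library make-up also differed. The noncoding RNA Gm26917 took 22.3% of counts in PRDX1MT, 5.36% in DKO clone 1, 12.2% in DKO clone 5 and 10.5% in WT. Mitochondrially encoded genes held 0.519%, 2.05%, 0.871% and 2.08% of counts, and small RNA genes 0.971%, 1.25%, 0.979% and 1.5%. With the mitochondrial and small RNA genes removed before scaling, the median of the 36 was 1.5, 1.74 and 0.22 in PRDX1MT, clone 1 and clone 5 against WT. The part of Gm26917, and of these other differences beyond that removal, in the result was not tested.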

How the data were processed

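RNA was counted in 4 libraries. Per the labels' protocols, total RNA was depleted of ribosomal RNA and made into stranded libraries. The aligner was STAR 2.6.1d and the build mm10, per the submitters' processing notes. How reads were assigned to genes (program, annotation, use of strand) is not given in the sources used here. Raw gene counts in whole numbers were deposited, 1 file per library, with no normalization by the authors. Of 54532 Ensembl identifiers, 54495 were named from GENCODE M21 (GRCm38); 37 stayed unnamed.

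Counts were analysed with R 4.3.3, edgeR 4.0.16, limma 3.58.1 and DESeq2 1.42.0. CPM and RPKM used TMM factors and GENCODE M21 exon length. edgeR's quasi-likelihood test fitted the 3 groups together (filterByExpr by group, Benjamini-Hochberg over 19446 genes, 1 residual degree of freedom). It takes single libraries to vary as the DKO clones do. The SE printed with a fitted log2 ratio was worked back from this test, as the ratio's size over the square root of the F statistic. The fit was also run on simulated counts, but these gave all libraries the same spread, so they cannot check that assumption. Single libraries were compared by the size rule on log2 ratios (prior count 2). Nothing says that the libraries came from separate cultures beyond their clones. Reads were amplified by PCR and carry no molecular identifiers, so they are not independent molecules, and intervals and the floor of 3 counts (0.0729 to 0.121 CPM) cover counting error only.

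All 36 genes could be named, up to 5 per role with intervals; from each list up to 3 genes with the largest ratio past the size rule. The 36 genes, the lists and the tests were chosen with earlier results of these data known. Alternatives were other scalings, filters, tools, thresholds and read minimums, and leaving out each clone.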

Additional observations from a re-analysis of the deposited data

How the results depend on the processing

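The medians kept their direction under every alternative run. PRDX1MT and DKO clone 1 were the 2 highest libraries for 28 (total counts, with Jun leaving) to 30 (median-of-ratios, with Nr4a2 joining) of the 36 genes, alternatives chosen after seeing the data. Under a 1.5-fold rule, members passing against WT numbered 1 lower in PRDX1MT and 10 higher and 7 lower in DKO clone 5, and 2 were lower in clone 1 against clone 5. Under a 4-fold rule, 5 passed higher in PRDX1MT, 14 in clone 1 and 0 in clone 5, and 0 were lower in clone 1 against clone 5. With a minimum of 20 reads, 1 passed lower than WT in clone 1 and 2 in clone 5. Median-of-ratios scaling gave 5 higher in clone 5, and total counts 3 lower. No share over all genes is given for these altered rules. Their counts show only how the member counts shift, not a departure from the background. Total counts moved the median of PRDX1MT against WT to 1.22, with all genes at -0.28 (-0.14 in clone 1 and -0.16 in clone 5), and turned the fitted DKO against WT value of Dusp6 to -0.049, against 0.073 with TMM; 83 of the members' other ratios moved past their counting interval. An edgeR contrast of PRDX1MT with WT that borrows the spread of the DKO clones called 0 members. It also called 0 of all 19446 genes tested, so nothing is read from it about the members. Without a filter on low counts, edgeR called 4 members higher in DKO against WT, Hbegf (adjusted p = 0.00163), Dusp5 (0.0205), Maff (0.0248) and Zfp36 (0.0351), in a fit that called 535 of 31043 genes; the cause was not tested. Leaving out 1 clone moved the DKO against WT median between 0.22 (without clone 1) and 1.73 (without clone 5), values with no test since no residual degree of freedom is left. No paired analysis was possible because the groups share fewer than 2 replicate numbers. Depth limited Arc and Dusp2, and 1 library per edited line limits the rest.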

Other observations

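A list of 14 MYC targets, most of them in ribosome making, ran in its median opposite to the 36 genes between the DKO clones. All 14 were lower in DKO clone 1 than in DKO clone 5, as were 9729 of all 19446 genes tested. The median log2 ratio of the 14 was -0.77 (-0.00055 over all genes tested), although Myc itself was higher in clone 1, at 124 CPM against 70.9 in clone 5. Of the 14, 3 passed the size rule lower and 0 higher in clone 1 against clone 5 (background 4.83% and 6.79% of all genes tested). Odc1, the first enzyme of polyamine synthesis, had 225 CPM in PRDX1MT, 140 in clone 1, 315 in clone 5 and 135 in WT. Npm1, a nucleolar chaperone, had 284, 165, 288 and 396 CPM, and Rrp9, a protein of ribosomal RNA processing, 35.9, 18.4, 29.5 and 17.6 CPM.

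Of 12 heat shock genes, which answer protein damage, 0 passed the size rule against WT in PRDX1MT and in DKO clone 5, and 1 passed higher in DKO clone 1. These counts are near the 3.7 to 5.59% of all genes tested that passed higher, and nothing is read from them. The gene was Dnajb1, a co-chaperone of HSP70, with 79.4 CPM in PRDX1MT, 169 in clone 1, 85.7 in clone 5 and 46.3 in WT.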
